A study of Mus musculus with 8 samples.

Results

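The collagen genes are the genes that encode the chains of the collagen proteins. They were taken as every row of the deposited tables whose mouse Ensembl identifier maps to a protein-coding gene with a symbol of the form Col, number, a, number. This rule uses names only and no measured value. It found 44 genes among 55471 gene identifiers. By the kind of protein they encode, 11 were fibrillar, 9 were basement membrane collagens, 9 were fibril-associated, 6 formed beaded filaments, 4 were transmembrane, 3 formed short-chain networks and 2 were other collagens.

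The genes were measured by RNA sequencing in 8 libraries of motor neurons derived from mouse HBG3 embryonic stem cells, which carry the HB9::GFP reporter of motor neuron identity. The stem cells had been kept on gelatin or on mouse embryonic fibroblasts (MEF) with LIF and inhibitors of the FGF receptor and of Gsk-3. After differentiation and papain dissociation the cells stayed for 3 days on polyornithine and laminin in N2B27 medium that held ascorbic acid at 200 ng/mL, a Rhok inhibitor at 10 nM, and the growth factors BDNF (20 ng/mL), CNTF and GDNF (both 10 ng/mL). All 8 libraries share this line, coating and medium. In the pull-downs, RNA was captured with biotinylated antisense probes. ODD and EVEN are separate sets of 20 nt probes against the long noncoding RNA Lhx1os, LacZ is a set against the LacZ mRNA and serves as the negative control, and Input is the sample that each pull-down is set against. Each of the 4 groups had 2 libraries, replicate 1 and replicate 2, from 2 independent experiments. The labels name no clone, sorting step or separate differentiation, so p-values measure the spread between these libraries only.

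Collagen chains wind into triple helices in which glycine recurs at a fixed spacing. Fibrillar collagens (types I, II, III, V, XI, XXIV and XXVII) assemble into the banded fibrils of connective tissue. The fibril-associated types, such as IX and XII, sit on their surface. Type IV builds the sheet of the basement membrane, the thin layer that surrounds the neural tube, vessels and Schwann cells, and types XV and XVIII are proteoglycans of that layer. Procollagen is hydroxylated and folded in the endoplasmic reticulum, where the prolyl hydroxylases use ascorbic acid as a cofactor.

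The repeat of the protein is visible in the genes. The exons below are shown because exons of 54 bases made up the largest share of coding exons in the fibrillar class. They were read from GENCODE release M21 transcripts on GRCm38. For each gene the first coding exon of 54 bases that starts on a codon and carries GGN, the glycine codon, once every 3 codons is given, with its 6 GGN codons in capitals.
Col2a1, coding exon 6, chr15:97998545-97998598, minus strand: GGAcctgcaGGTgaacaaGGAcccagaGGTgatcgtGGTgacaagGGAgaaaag
Col11a2, coding exon 15, chr17:34051480-34051533, plus strand: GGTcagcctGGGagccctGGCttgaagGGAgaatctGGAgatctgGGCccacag
Col5a2, coding exon 6, chr1:45434892-45434945, minus strand: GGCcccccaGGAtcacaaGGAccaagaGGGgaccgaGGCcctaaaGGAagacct
Col9a3, coding exon 5, chr2:180601582-180601635, plus strand: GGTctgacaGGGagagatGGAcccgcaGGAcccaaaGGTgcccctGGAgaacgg
Col18a1, coding exon 27, chr10:77067379-77067432, minus strand: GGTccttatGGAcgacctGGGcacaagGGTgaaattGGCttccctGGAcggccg
Col4a1, coding exon 7, chr8:11245211-11245264, minus strand: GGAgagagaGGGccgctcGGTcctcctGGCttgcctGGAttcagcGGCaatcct

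Exons of this length made up 47.0% of the 649 coding exons of the 11 fibrillar genes, 25.2% of those of the fibril-associated genes and 4.44% of those of the basement membrane genes. In all other protein-coding genes they made up 0.444% of 197259 coding exons. Coding exons whose length is a multiple of 9 bases, the length of one glycine triplet, were 82.4% in the fibrillar class and 69.0% in the transmembrane class. They were 53.0% in the fibril-associated, 51.6% in the beaded filament and 48.7% in the basement membrane class. The other collagens had 27.7%, the short-chain class 0% and all other protein-coding genes 14.0%. Single genes overlapped, with 78.6% in the transmembrane Col23a1 and 74.6% in the fibrillar Col5a3. The longest run of GGN once every 3 codons held 337 to 344 triplets in 9 of the 11 fibrillar genes, and 216 and 217 in Col24a1 and Col27a1. In the 9 basement membrane genes the longest run held 30 to 75 triplets. Col9a1, Col9a2, Col9a3 and Col22a1 each had a longest run of 113.

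Col4a1 and Col4a2, the chains of the main type IV collagen, start 22 bases inside each other on opposite strands, at chr8:11312805-11312826. The shared stretch is shown because both genes are among the 4 most abundant collagen genes here, with the motif GGGCGG in capitals, plus strand of GRCm38.p6:
Col4a1 and Col4a2 shared start: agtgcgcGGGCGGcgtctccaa
RefSeq windows of the 250 bases before a gene start (GRCm38.p6) were found for 35 of the 44 genes, giving 38 windows. GGGCGG, on either strand, was in 22 of these 38 windows (57.9%) and in 32.7% of all 32851 windows. The collagen windows also had more G and C, with a median of 59.0% against 52.4%. CCAAT was in 34.2% of the collagen windows and in 33.9% of all windows. A match is a description of the letters and not of binding.

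Depth differed between the libraries. The total count was 24628435 and 20515501 in Input while the 6 pull-downs had 7632775 to 12563449. Collagen genes held 0.121% of the counts in Input replicate 1 (95% Wilson score interval 0.120% to 0.122%). In Input replicate 2 they held 0.0745% (0.0734% to 0.0757%). In the pull-downs their share was between 0.0623% in LacZ replicate 2 and 0.0775% in EVEN replicate 2. These intervals cover counting error only, since the reads carry no molecular identifiers. A count of 0 allowed up to 0.122 CPM (counts scaled to a fixed library total) in Input replicate 1 and 0.393 in LacZ replicate 1. All 7 motor neuron markers examined, led by Mnx1, Slc18a3, Isl1 and Chat, had a mean level of at least 1 FPKM (the count scaled to gene length and to the total count of the library).

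Summed over the 44 genes, the level was 149 and 95.4 FPKM in Input replicates 1 and 2, 76.2 and 76.6 with LacZ, 77.6 and 81.5 with ODD, and 81.9 and 93.5 with EVEN. Input replicate 1 stood above the other 7 libraries. All 44 genes had at least 1 count, 22 had a mean level of at least 1 FPKM over the 8 libraries and 7 were under 0.1 FPKM. The fibrillar class held 39.5% of the collagen FPKM, the basement membrane class 35.7%, the fibril-associated class 13.1%, the short-chain class 5.61%, the beaded filament class 2.90%, the transmembrane class 1.79% and the other collagens 1.47%. Each of the 10 genes with the highest mean came from 1 of 4 classes, with 4 fibrillar, 4 basement membrane, 1 fibril-associated and 1 short-chain gene. In order of mean FPKM they were Col18a1, Col5a1, Col4a1, Col4a2, Col3a1, Col1a1, Col5a2, Col8a2, Col12a1 and Col4a5. Between neighbours in this order the means differed by less than the range that each gene covered over the libraries.

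**Figure D1:**
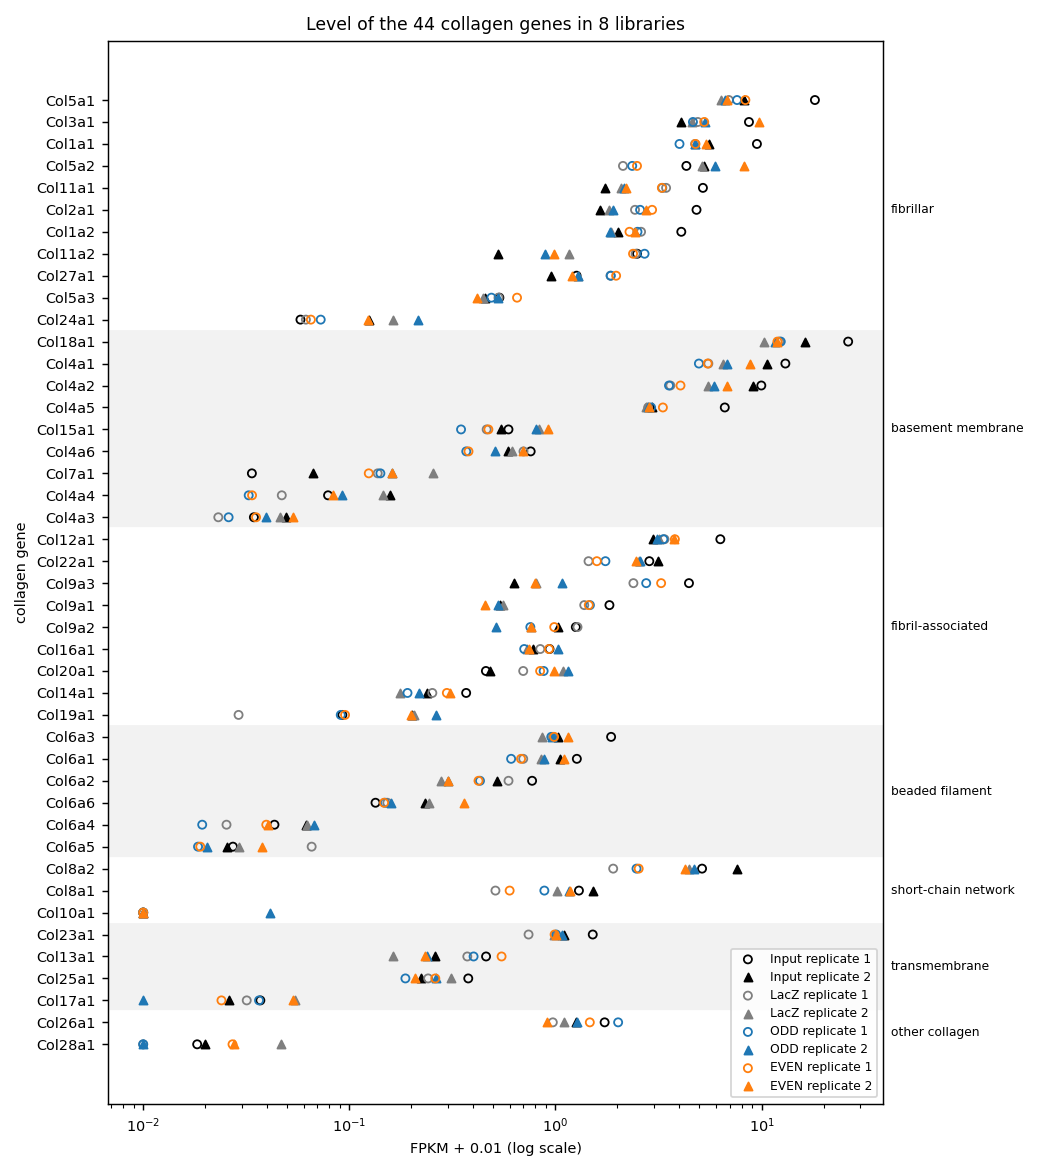
Level of each of the 44 collagen genes (rows, by class) in each of the 8 libraries, as FPKM + 0.01 on a log axis; circles are replicate 1, triangles replicate 2, and colour marks the group. Col18a1 is furthest to the right, with 26.3 FPKM in Input replicate 1, and Input replicate 1 is the highest library for most of the abundant genes.

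Among the basement membrane genes, Col18a1, the source of the fragment endostatin, was highest. It had 26.3 and 16.3 FPKM in Input replicates 1 and 2, 12.2 and 10.3 with LacZ, 12.4 and 11.6 with ODD, and 11.9 and 11.9 with EVEN. Both Input libraries lay above all 6 pull-downs. Col4a1 had 13.0 and 10.6 FPKM in Input, 5.51 and 6.49 with LacZ, 4.96 and 6.79 with ODD, and 5.47 and 8.83 with EVEN. Its partner Col4a2 had 9.97 and 9.08 in Input, 3.60 and 5.49 with LacZ, 3.55 and 5.90 with ODD, and 4.04 and 6.82 with EVEN. Here too both Input libraries were the highest. Type IV collagen is assembled from chains that are made as neighbours on the chromosome, and the FPKM ratio of Col4a1 to Col4a2 stayed between 1.15 and 1.53 over the 8 libraries. Col4a5, which pairs with Col4a6 on the X chromosome, had 6.62 and 2.94 FPKM in Input, 2.81 and 2.74 with LacZ, 2.90 and 2.80 with ODD, and 3.31 and 2.82 with EVEN. Only Input replicate 1 stood apart. Col4a6 was lower, and the FPKM ratio of Col4a5 to Col4a6 ranged from 4.07 to 8.99. The third pair was near the limit of detection, with 93 counts for Col4a4 and 32 for Col4a3 in all 8 libraries together.

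Of the fibrillar genes, Col5a1, a minor chain that nucleates fibrils, was the most abundant. It had 18.2 and 8.22 FPKM in Input, 6.93 and 6.37 with LacZ, 7.6 and 6.66 with ODD, and 8.34 and 6.81 with EVEN. Its annotated exons overlap 2 genes on the opposite strand by 99 and 113 bases, and whether the counting used strand is not stated in the sources at hand. Col3a1, the chain of type III collagen of soft connective tissue, had 8.68 and 4.04 FPKM in Input, 4.90 and 4.58 with LacZ, 4.64 and 5.32 with ODD, and 5.26 and 9.75 with EVEN. The highest libraries were EVEN replicate 2 and Input replicate 1, so the groups overlapped. Col1a1 and Col1a2 make type I collagen, the bulk collagen of skin, tendon and bone. Col1a1 had 9.49 and 5.53 FPKM in Input, 4.75 and 4.73 with LacZ, 3.99 and 4.76 with ODD, and 4.77 and 5.40 with EVEN. Col1a2 had 4.07 and 2.00 in Input, 2.59 and 1.86 with LacZ, 2.49 and 1.82 with ODD, and 2.28 and 2.42 with EVEN. The FPKM ratio of Col1a1 to Col1a2 was between 1.60 in ODD replicate 1 and 2.77 in Input replicate 2. It depends on the deposited lengths, which were 6563 bases for Col1a1 and 12426 for Col1a2. The counts of Col1a1 and Col1a2 were 329 and 389 in ODD replicate 1, and 744 and 509 in Input replicate 2. The ratio is one of RNA and says nothing on the chains of the protein.

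The remaining classes were led by genes of lower level. Col12a1, a fibril-associated collagen of dense connective tissue, had 6.30 and 2.97 FPKM in Input, 3.37 and 3.17 with LacZ, 3.33 and 3.12 with ODD, and 3.79 and 3.74 with EVEN. Only Input replicate 1 was apart from the rest. Col6a3, a chain of the beaded filaments, had 1.85 and 1.02 FPKM in Input, 0.964 and 0.847 with LacZ, 0.945 and 0.952 with ODD, and 0.976 and 1.14 with EVEN. Among the transmembrane collagens Col23a1 was highest, with 1.51 and 1.10 FPKM in Input, 0.731 and 0.969 with LacZ, 0.999 and 1.07 with ODD, and 0.981 and 0.996 with EVEN. Col25a1, a transmembrane collagen made by neurons and known for its role in motor innervation of muscle, stayed low. It had 0.368 and 0.213 FPKM in Input, 0.231 and 0.303 with LacZ, 0.177 and 0.254 with ODD, and 0.251 and 0.199 with EVEN. Its deposited length, like those of Col5a1 and Col13a1, differed from that of the annotation used here, and FPKM depends on it. Col26a1 had 1.72 and 1.25 FPKM in Input, 0.961 and 1.09 with LacZ, 2.01 and 1.26 with ODD, and 1.46 and 0.900 with EVEN. At the bottom, Col10a1, the collagen of hypertrophic cartilage, had 1 count in all, in ODD replicate 2, and Col28a1 had 6.

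Whether the collagen RNA came from non-neural cells was not tested, since bulk libraries hold no cell identity. In bulk RNA, fewer cells of a type and less RNA per cell cannot be told apart. Marker levels were as follows. The 10 fibroblast and mesenchyme markers summed to between 29.2 and 47.1 FPKM per library, led by Fn1, Pdgfra, Fbln1 and Twist1, against 344 to 656 FPKM for the 6 neuron markers. Dcn, of the fibroblast and mesenchyme list, had 2.14 and 0.960 FPKM in Input, and Lum of the same list had 1.39 and 0.597. The 7 endothelial markers summed to at most 1.18 FPKM. The 7 muscle markers summed to between 10.2 and 20.5 FPKM per library, nearly all of it Tagln and Acta2. The other 5 each had a mean under 0.1 FPKM. Of this list, the lineage factor Myf5 had 0 counts in all 8 libraries. The 7 endoderm markers summed to between 4.27 and 17.6 FPKM, nearly all of it Foxa1, which had 5.31 and 17.2 FPKM in Input. Of these 7 markers, 5 had a mean under 0.1 FPKM. Sox17 of the same list had 1 count in each Input library and no count in any pull-down.

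Each group held a library from either experiment, which allowed replicate 2 to be compared with replicate 1 over the 4 groups. The libraries of an experiment share their cells, so the test compares these 2 experiments only. Col9a1, Col9a3, Col11a1 and Col11a2, genes of the types IX and XI known from cartilage, were higher in replicate 1, and Col5a2 and Col8a2 were higher in replicate 2. With edgeR's quasi-likelihood test and Benjamini-Hochberg adjustment over 16524 genes, 38 of the 44 collagen genes could be tested and 14 passed the threshold of 0.05. Of these 14, 7 were higher and 7 lower in replicate 2, and 3 of the 7 higher (Col19a1, Col4a4, Col24a1) had entered the test through replicate 2 libraries only. Of all genes tested 27.4% were called, 15.0% as higher and 12.4% as lower, and the collagen share was 36.8%, from which nothing is read since it includes those 3 genes. The 6 genes left out by the filter on low counts were Col4a3, Col6a4, Col6a5, Col10a1, Col17a1 and Col28a1. The median log2 fold change was -0.12 for the 38 collagen genes and 0.01 for all genes.

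By class, 3 fibrillar genes were called lower (Col11a1, Col11a2, Col27a1) and 2 higher (Col5a2, Col24a1), of 11 tested. Of 9 fibril-associated genes, 2 were lower (Col9a1, Col9a3) and 2 higher (Col19a1, Col22a1). Of 8 basement membrane genes, only Col4a4 was called, as higher. Both short-chain genes tested, Col8a1 and Col8a2, were higher. Col6a2 of the beaded filaments and Col13a1 of the transmembrane collagens were lower.

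Collagen IX decorates fibrils of collagens II and XI. Col9a3 had 4.44 and 0.620 FPKM in Input replicates 1 and 2, 2.38 and 0.791 with LacZ, 2.75 and 1.06 with ODD, and 3.25 and 0.787 with EVEN. All replicate 1 libraries lay above all replicate 2 libraries, and the gene was 4.04-fold lower in replicate 2 (log2 fold change -2.02, SE 0.25, adjusted p = 0.00147). Its exons overlap Tcfl5 on the opposite strand by 234 bases. Col9a1 had 1.82 and 0.529 FPKM in Input, 1.37 and 0.549 with LacZ, 1.46 and 0.518 with ODD, and 1.44 and 0.444 with EVEN. Here as well the experiments did not overlap, and the log2 fold change was -1.60 (SE 0.15, adjusted p = 0.000558). The third chain, Col9a2, missed the threshold at -0.47 (SE 0.18, adjusted p = 0.0958). Its levels were 1.25 and 1.02 FPKM in Input, 1.27 and 0.753 with LacZ, 0.746 and 0.503 with ODD, and 0.977 and 0.755 with EVEN, and the experiments overlapped.

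Both genes of type XI collagen, which sets the thickness of cartilage fibrils, were lower in replicate 2. Col11a2 had 2.48 and 0.518 FPKM in Input, 2.44 and 1.15 with LacZ, 2.70 and 0.878 with ODD, and 2.37 and 0.970 with EVEN. It changed by -1.58 on the log2 scale (SE 0.20, adjusted p = 0.00171). Col11a1 had 5.19 and 1.72 FPKM in Input, 3.43 and 2.07 with LacZ, 3.29 and 2.14 with ODD, and 3.28 and 2.18 with EVEN, and changed by -0.90 (SE 0.18, adjusted p = 0.0102). For both, every replicate 1 library was above every replicate 2 library. Col2a1, the main collagen of cartilage, was 4.83 and 1.63 FPKM in Input, 2.42 and 1.81 with LacZ, 2.57 and 1.90 with ODD, and 2.94 and 2.75 with EVEN. Replicate 1 was the higher library in each group, but EVEN replicate 2 exceeded LacZ replicate 1, and the change of -0.65 (SE 0.24, adjusted p = 0.079) was not called. Col27a1, a fibrillar collagen of growing cartilage, had 1.26 and 0.940 FPKM in Input, 1.84 and 1.27 with LacZ, 1.85 and 1.27 with ODD, and 1.96 and 1.20 with EVEN. It was called lower at -0.56 (SE 0.10, adjusted p = 0.00599).

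**Figure D2:**
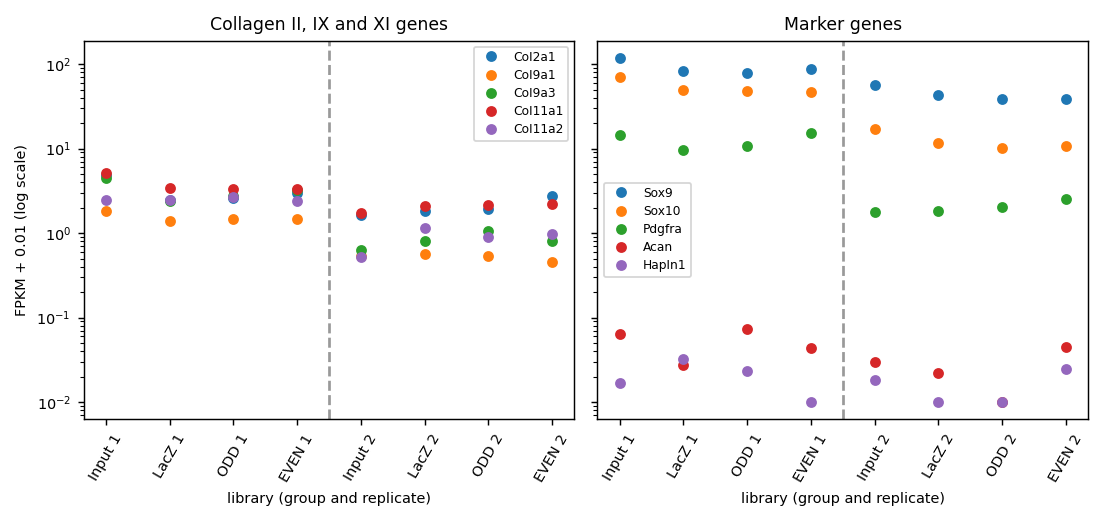
Levels of collagen II, IX and XI genes (left) and of marker genes (right) in the 8 libraries, as FPKM + 0.01 on a log axis; the dashed line separates replicate 1 from replicate 2. Col9a3, at 4.44 FPKM in Input replicate 1 and 0.620 in Input replicate 2, drops across the line with Sox10 (71.0 and 16.9), while Acan stays under 0.1 FPKM on both sides.

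Markers of other cells moved between the experiments too, and their part in the collagen differences was not tested. Sox9, which activates Col2a1, Col9a1 and Col11a2 in cartilage, had 118 and 56.1 FPKM in Input and was 1.07 lower on the log2 scale in replicate 2 (SE 0.08, adjusted p = 0.000204). It was the only member of the 6 cartilage markers to pass the filter. Cnmd, the highest of the other 5, reached 0.456 FPKM in EVEN replicate 1 and was at or under 0.173 FPKM in the other 7 libraries. Acan, Hapln1 and Comp were under 0.1 FPKM in every library and Matn1 reached 0.199 FPKM in ODD replicate 1. The summed level of the cartilage list was 78.4 to 118 FPKM in replicate 1 and 38.5 to 56.2 in replicate 2, nearly all of it Sox9. Of the neural crest and Schwann cell markers, Sox10 was lower in replicate 2 at -2.14 and Erbb3 at -1.46 (adjusted p 2.49e-05 and 0.00128 in edgeR), while Foxd3 of the same list was not called, at 0.73 (adjusted p = 0.156). Sox10, a transcription factor of these cells, had 71.0 and 16.9 FPKM in Input, 49.4 and 11.6 with LacZ, 48.1 and 10.2 with ODD, and 47.2 and 10.8 with EVEN. Of 10 fibroblast and mesenchyme markers, 4 were lower (Pdgfra, Dcn, Lum, Pdgfrb) and 3 higher (Fn1, Twist1, Thy1). Thy1 reached the filter level in replicate 2 libraries only. Lum reached it in 4 libraries of replicate 1 and 1 of replicate 2, and so entered the test through replicate 1. The sums of the 10 markers overlapped, at 29.2 to 47.1 and 33 to 42.9 FPKM. Motor neuron markers were higher in replicate 2 for 5 of 7, with sums of 60.1 to 67.2 against 99.7 to 111 FPKM. Neuron markers were higher for 3 of 6, and floor plate markers were higher for 3 and lower for 1 of 5. Acta2 and Tagln, of the muscle list, and Foxa1 and Gata6, of the endoderm list, were higher, and Gata6 also reached the filter level in replicate 2 only. Crabp2, of 5 meningeal markers, was also higher, and the tested endothelial marker Kdr was not called.

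Col5a2, the second chain of type V collagen, went the other way from Col5a1. Col5a2 had 4.31 and 5.27 FPKM in Input replicates 1 and 2, 2.12 and 5.11 with LacZ, 2.35 and 5.96 with ODD, and 2.48 and 8.17 with EVEN. Every replicate 2 library was above every replicate 1 library, and the gene was called higher at 1.13 (SE 0.22, adjusted p = 0.00983). Col5a1 was not called, at -0.45 (SE 0.17, adjusted p = 0.0918). The FPKM ratio of Col5a1 to Col5a2 was therefore 3.24 to 4.21 in replicate 1 and 0.833 to 1.56 in replicate 2. Col8a2 and Col8a1 form the hexagonal networks of type VIII collagen, known from Descemet's membrane and vessel walls. Col8a2 had 5.14 and 7.56 FPKM in Input, 1.90 and 4.42 with LacZ, 2.46 and 4.68 with ODD, and 2.53 and 4.26 with EVEN. Within each group replicate 2 was higher (0.83, SE 0.13, adjusted p = 0.00371), while Input replicate 1 exceeded the pull-downs of replicate 2. Col8a1 followed at 0.59 (SE 0.18, adjusted p = 0.0453), with 1.29 and 1.51 FPKM in Input, 0.502 and 1.01 with LacZ, 0.874 and 1.16 with ODD, and 0.590 and 1.17 with EVEN.

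Apart from Col22a1, the other called genes had means under 1 FPKM. Col13a1, found at the neuromuscular junction, was lower at -1.01 (SE 0.23, adjusted p = 0.016), with 0.451 and 0.250 FPKM in Input, 0.364 and 0.153 with LacZ, 0.391 and 0.229 with ODD, and 0.538 and 0.222 with EVEN. Col6a2 was lower at -0.67 (SE 0.18, adjusted p = 0.0289), with 0.761 and 0.509 FPKM in Input, 0.582 and 0.269 with LacZ, 0.421 and 0.292 with ODD, and 0.414 and 0.291 with EVEN. Its experiments overlapped, unlike those of Col13a1. Col22a1, known from the muscle and tendon junction, was higher at 0.51 (SE 0.13, adjusted p = 0.0267), with 2.85 and 3.14 FPKM in Input, 1.44 and 2.53 with LacZ, 1.74 and 2.57 with ODD, and 1.58 and 2.45 with EVEN. Col19a1, Col4a4 and Col24a1 reached the filter's level in replicate 2 libraries only, so that for them to be tested at all they had to be higher there. Col19a1 had 14 and 27 counts in Input, 1 and 15 with LacZ, 7 and 18 with ODD, and 7 and 15 with EVEN. Col4a4 had 18 and 32 counts in Input, 3 and 16 with LacZ, 3 and 9 with ODD, and 3 and 9 with EVEN. Col24a1 had 9 and 18 counts in Input, 3 and 13 with LacZ, 6 and 16 with ODD, and 5 and 10 with EVEN. Scaled to depth, each of these 3 genes was above every replicate 1 library in every replicate 2 library, and their log2 fold changes were 1.50, 1.42 and 1.36.

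**Figure D3:**
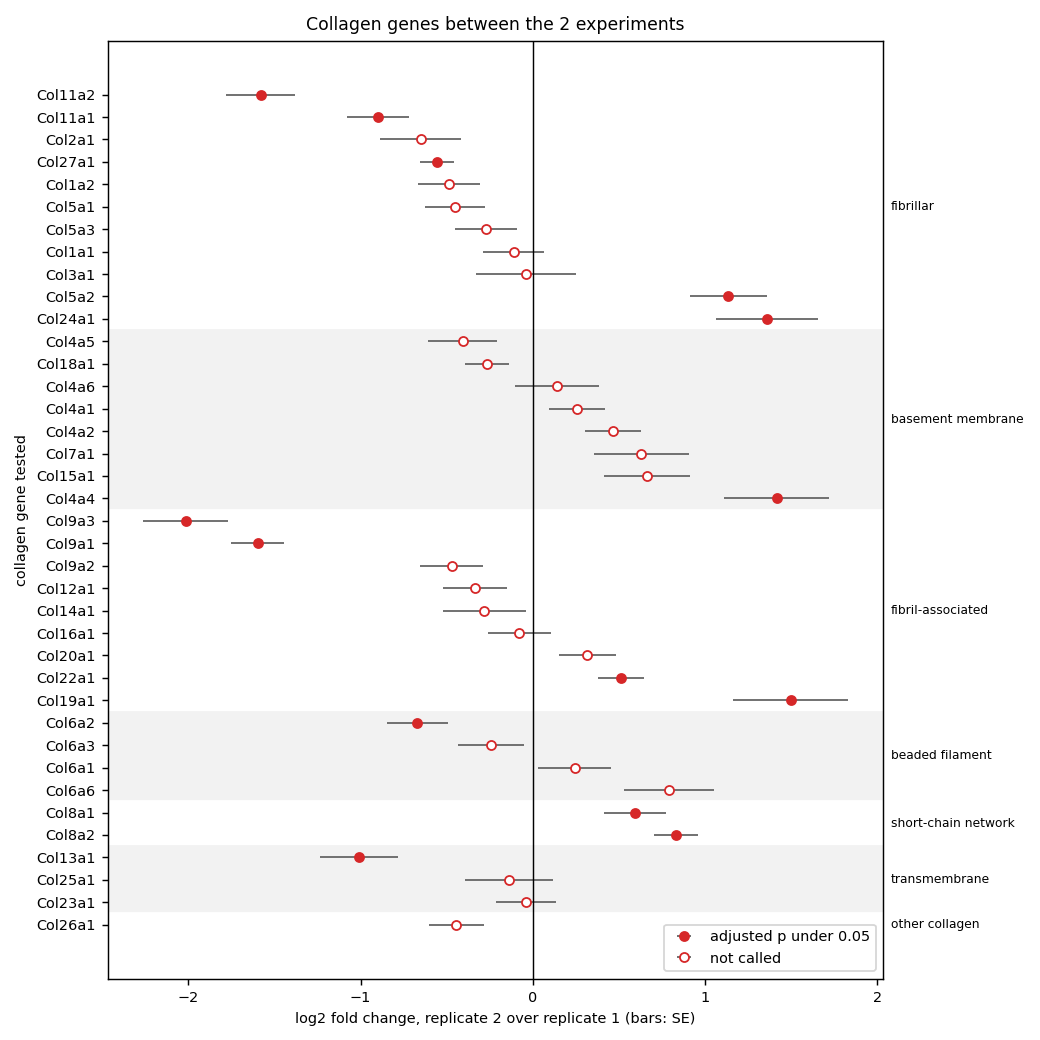
Log2 fold change of replicate 2 over replicate 1 for the 38 collagen genes tested, by class, with bars of 1 SE; filled points have an adjusted p under 0.05 in edgeR's quasi-likelihood test. Col9a3 at -2.02 and Col19a1 at 1.50 mark the ends, and 7 genes are called on either side.

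In all, 6 of the 38 genes had every replicate 1 library above every replicate 2 library after scaling to depth, against 10.6% of all genes tested. These were Col9a1, Col9a3, Col11a1, Col11a2, Col13a1 and Col27a1. The reverse held for 5 genes (Col5a2, Col6a6, Col4a4, Col19a1, Col24a1), where 12.0% of all genes did so, and 3 of the 5 had entered the test through replicate 2 only. On leaving out one library, the number called was 17 or 18 without an Input library, 9 without a LacZ library, 7 without an ODD library and 10 without an EVEN library. Col9a1, Col9a3, Col11a1, Col11a2, Col27a1, Col5a2 and Col8a2 were called under all 16 alternatives. These are not 16 separate checks. Leaving out either library of a group takes the same difference between replicates out of the fit. Col4a4, Col6a2, Col8a1, Col13a1 and Col22a1 lost the call when any pull-down library was left out, and their highest Benjamini-Hochberg adjusted p over all alternatives, edgeR, DESeq2 and limma included, was 0.188, 0.113, 0.154, 0.0643 and 0.110.

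Genes that act on collagen were called in both directions, and their counts are to be read beside the 27.4% of all genes called in this comparison. Of 25 genes for collagen processing, 24 were tested, and 5 were higher and 5 lower in replicate 2. P4hb, a subunit of prolyl 4-hydroxylase, was lower at -0.80 (SE 0.18, adjusted p = 0.0152), and it had 297 FPKM in EVEN replicate 1 against 72.0 to 159 in the other 7 libraries. The lysyl hydroxylase gene Plod1 was lower at -1.11 and the lysyl oxidase gene Loxl2 was higher at 0.80 (adjusted p 0.00159 and 0.00232). Of 15 basement membrane partners tested, 3 were higher and 2 lower, with Sparc lower at -0.75 (adjusted p = 0.00081). Of 6 collagen receptors tested, 3 were lower, namely Itga2, Itgb1 and Ddr1, and none was higher. Ddr1, a receptor tyrosine kinase for collagen, had 66.2 and 29.4 FPKM in Input, 32.2 and 21.8 with LacZ, 34 and 22.5 with ODD, and 33.4 and 20.1 with EVEN.

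Each pull-down was next compared with Input, the comparison the study used for enrichment. Col18a1, Col4a2 and Col8a2 were lower, and Col7a1 and Col20a1 higher, in all 3 pull-downs with the replicate as a block. Without the block no collagen gene was called. Col7a1 had passed the filter on low counts only through the pull-downs, so it had to be higher there. LacZ, ODD and EVEN are all set against the same 2 Input libraries. With group alone in the model, edgeR's quasi-likelihood test called 0 of 38 collagen genes for ODD, EVEN and LacZ, where 6.84%, 5.66% and 7.41% of all genes were called. Nearly all of those were higher in the pull-down (6.46%, 5.37% and 6.98%), with 0.375%, 0.284% and 0.430% lower. At an unadjusted p under 0.05 the collagen counts were 7, 4 and 7 of 38, where 18.3%, 18.8% and 18.9% of all genes reached it, so that these counts are near or under the background. DESeq2 called 1 gene (Col4a1) for ODD, 0 for EVEN and 3 (Col18a1, Col4a1, Col7a1) for LacZ. Median log2 fold changes of the 38 genes were -0.47 for ODD, -0.32 for EVEN and -0.51 for LacZ, against -0.03, -0.00 and -0.05 for all genes. The numbers below 0 were 30, 25 and 31 of 38. Without Input replicate 1 the median was -0.07 for ODD, 0.08 for EVEN and -0.14 for LacZ. Against the Input of its own replicate, the mean of the 3 pull-downs was above Input for 5 of the 38 genes in replicate 1 and for 16 in replicate 2.

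Because the replicate numbers mark shared experiments, the same comparison was made with the replicate as a block. It then called 5 collagen genes lower and 3 higher for ODD, 4 lower and 3 higher for EVEN, and 7 lower and 2 higher for LacZ. Of all genes, 19.2%, 19.3% and 19.7% were called in these blocked fits, with 6.55%, 6.41% and 7.00% as lower and 12.6%, 12.8% and 12.7% as higher. The collagen shares called were 21.1%, 18.4% and 23.7%. Nothing is read from these shares, since the higher genes in each include Col7a1, which passed the filter only through the pull-downs. Without Input replicate 2 and without the block, 5, 1 and 5 genes were called, and without Input replicate 1 none.

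Among basement membrane genes, the blocked log2 fold changes of Col4a2 were -1.09 in ODD (SE 0.23, adjusted p = 0.0155), -0.86 in EVEN (SE 0.23, adjusted p = 0.0374) and -1.17 in LacZ (SE 0.23, adjusted p = 0.0121). Those of Col18a1 were -0.81, -0.78 and -0.95, with adjusted p of 0.0191, 0.0232 and 0.0105 in edgeR. Col4a1 was called in ODD at -1.06 and in LacZ at -1.05 (adjusted p 0.0175 and 0.0176), and missed the threshold in EVEN at -0.75 (adjusted p = 0.0575). Of the short-chain genes, Col8a2 was lower in all 3, at -0.89, -0.91 and -1.12 (adjusted p 0.0125, 0.0124 and 0.00534), and Col8a1 in LacZ at -0.98. Col6a2 was lower in ODD and EVEN, at -0.84 and -0.83 (adjusted p 0.0469 and 0.0498). In LacZ alone Col5a1 (-0.96) and Col22a1 (-0.68) passed, and neither was called in the comparisons of ODD and EVEN with LacZ.

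Col20a1, a fibril-associated collagen, and Col7a1, which makes the anchoring fibrils of skin, were on the other side. Col20a1 had 0.450 and 0.474 FPKM in Input, 0.688 and 1.08 with LacZ, 0.867 and 1.14 with ODD, and 0.833 and 0.977 with EVEN. All 6 pull-downs lay above both Input libraries, and blocked log2 fold changes were 1.08 for ODD, 0.98 for EVEN and 0.88 for LacZ (adjusted p 0.0159, 0.0248 and 0.0383 in edgeR). Col7a1 had 6 and 12 counts in Input, 10 and 28 with LacZ, 17 and 16 with ODD, and 14 and 18 with EVEN, from Input libraries of more depth. It passed the filter only through the pull-downs and so had to be higher there, with blocked values of 1.85, 1.77 and 2.18. On the same strand, the exons of Col7a1 hold 36 bases of Mir711, and those of Col20a1 overlap BX649560.1 by 79 bases. Col27a1 was higher in ODD at 0.49 and EVEN at 0.52 (adjusted p 0.0448 and 0.0351), and missed the threshold in LacZ at 0.45 (adjusted p = 0.057).

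**Figure D4:**
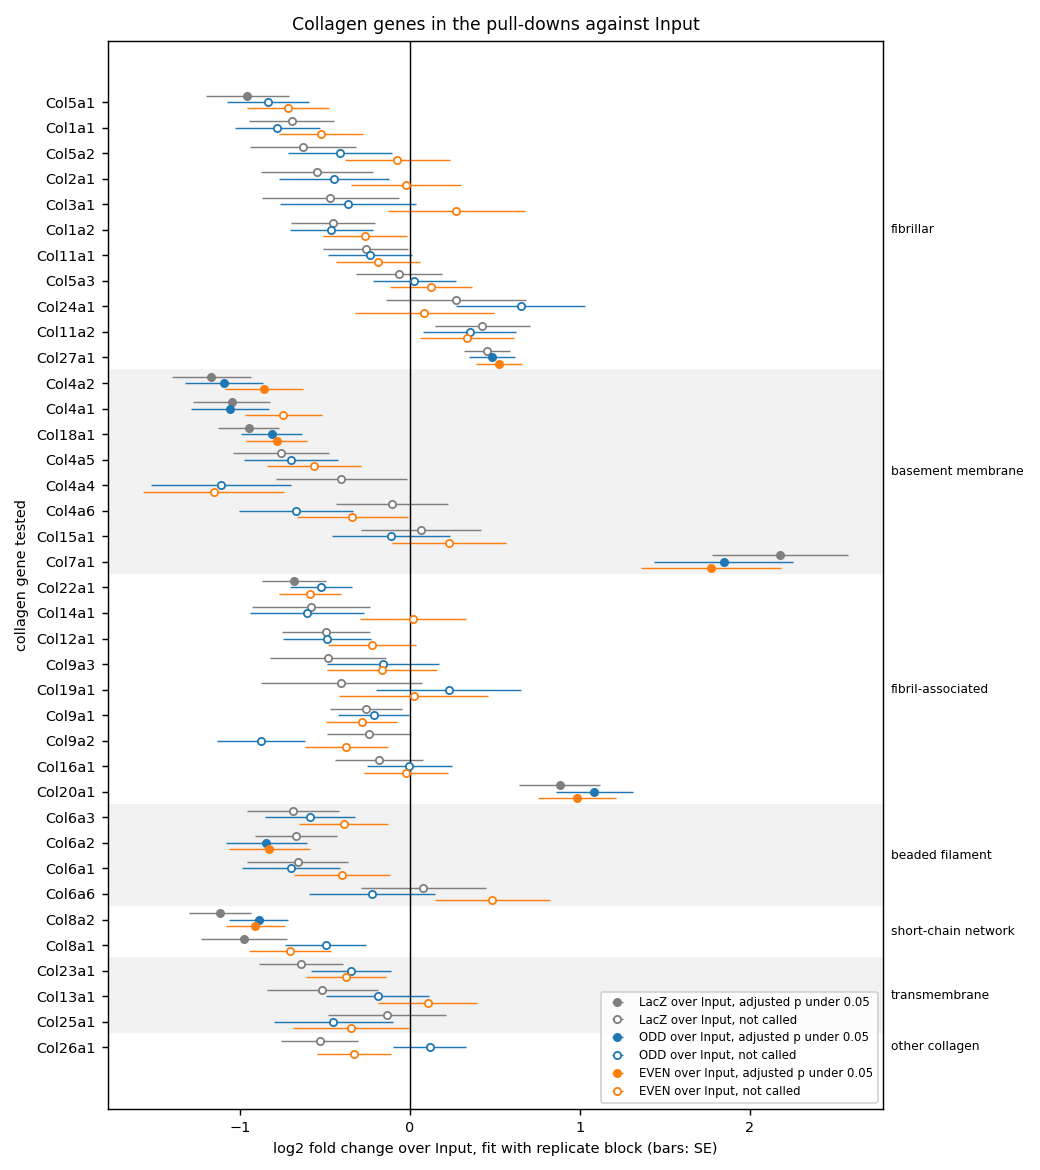
Log2 fold change over Input in the LacZ, ODD and EVEN pull-downs for the 38 collagen genes tested, by class, from the edgeR fit with the replicate as a block; bars are 1 SE and filled points have an adjusted p under 0.05. Points of the 3 probe sets lie close together for most genes, with Col4a2 between -1.17 and -0.86 and Col7a1 between 1.77 and 2.18.

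By libraries, 8 of the 38 genes had all 6 pull-downs below both Input libraries (15.9% of all genes tested) and 2 had them above (16.5%). The 8 were Col18a1, Col1a1, Col22a1, Col23a1, Col4a1, Col4a2, Col8a1 and Col8a2. The 2 were Col20a1 and Col7a1, of which Col7a1 had passed the filter only through the pull-downs. Set against the Input of its own replicate, each of the 6 pull-downs was lower for 14 genes (28.0% of all genes) and higher for 4 (21.4%). Col7a1 was among these 4 as well. Other gene lists also had medians below 0. For ODD against Input without the block the median log2 fold change was -0.43 for collagen processing, -0.55 for the fibroblast and mesenchyme markers, -0.58 for floor plate markers, -0.39 for neuron markers and 0.05 for motor neuron markers. With the block, Dcn and Fbln1 of the fibroblast list, Shh and Ntn1 of the floor plate list and Elavl3 of the neuron list were lower in all 3 pull-downs, and Chat was higher. Serpinh1, the collagen chaperone HSP47, had 75.6 and 67.1 FPKM in Input, 32.9 and 30.9 with LacZ, 36.3 and 30.0 with ODD, and 35 and 27.5 with EVEN, and it was the only listed pathway or marker gene called without the block. Its adjusted p was then 0.0161 for ODD, 0.0171 for EVEN and 0.0113 for LacZ. With the block 5, 3 and 5 of 24 processing genes were lower in ODD, EVEN and LacZ and none was higher, among them Serpinh1, P4ha3 and Plod1 in all 3. Sparc and Lamc1 of the basement membrane partners and Ddr1 of the receptors were also lower in all 3.

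The change from Input to pull-down was also set side by side for the experiments. The spread in this test comes from the 3 pull-downs of each experiment alone, since each has 1 Input library, so its p-values do not cover the variation between Input libraries. A test of the difference between the experiments, an interaction of capture with replicate in edgeR, called 5 of 38 collagen genes, where 6.86% of all genes were called and 2.11% in the same direction. The count was 2 without ODD replicate 2, where Col1a1, Col5a1 and Col12a1 lost the call, 3 without ODD replicate 1, where Col1a1 and Col12a1 lost it, 10 without LacZ replicate 2 and 13 without EVEN replicate 2. In replicate 1, Col5a1 was lower than its own Input by 1.18 to 1.49 on the log2 scale in the 3 pull-downs, and in replicate 2 by 0.25 to 0.45. Col4a5 was lower by 1.06 to 1.34 in replicate 1 and by 0.03 to 0.19 in replicate 2. Col1a1 was lower by 1.05 to 1.30 and by 0.01 to 0.31. Col12a1 and Col11a1 were lower in the pull-downs of replicate 1 and higher in those of replicate 2. All 5 rest on 1 Input library per experiment, and Input replicate 1 was the library with the highest collagen share.

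**Figure D5:**
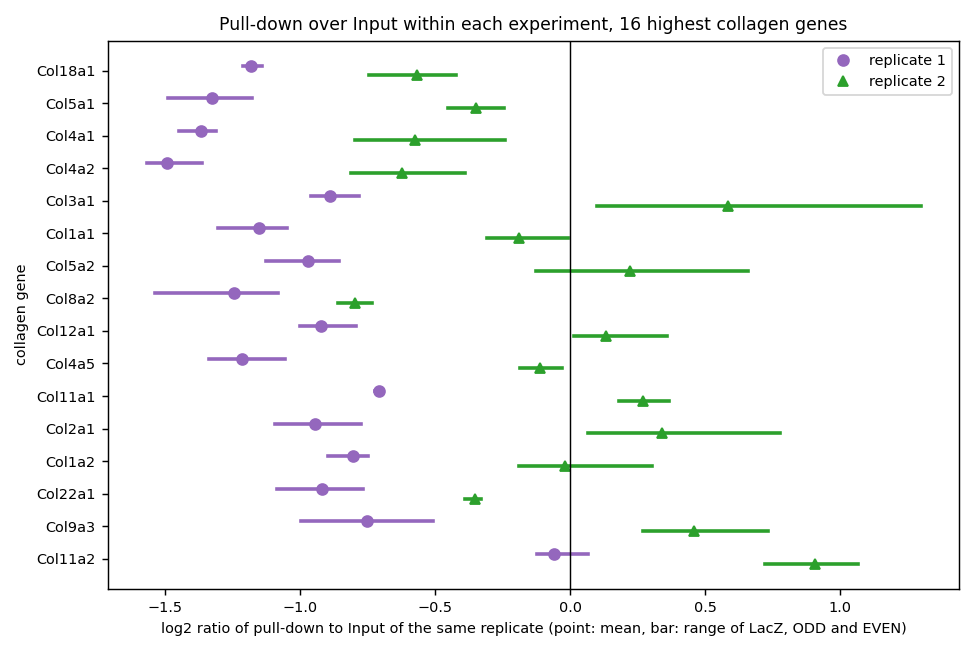
Log2 ratio of pull-down to the Input of the same replicate for the 16 collagen genes of highest mean FPKM; points are the mean and bars the range of LacZ, ODD and EVEN. Points of replicate 1 lie left of those of replicate 2 in every row shown, for Col5a1 at -1.33 and -0.35.

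The Lhx1os probe sets were finally compared with the LacZ control probes, which separates what the Lhx1os probes recover from what any probe set does. With edgeR 0 of 38 were called in ODD and 0 in EVEN, which is also the share of all genes called (0% in each), so the counts say nothing particular to collagen genes. None of the 38 reached an unadjusted p under 0.05. Over all genes 170 (1.03%) and 283 (1.71%) reached that level, so the absence of collagen genes there says nothing particular to them. Median log2 fold changes were 0.09 for ODD and 0.19 for EVEN, against 0.01 and 0.02 for all genes. Both comparisons use the same LacZ libraries. The SEs that follow are from the fit without the block, so they include the spread between the experiments. The highest value in EVEN was that of Col3a1 at 0.74 (SE 0.42), with 9.75 FPKM in EVEN replicate 2 against 5.26 in EVEN replicate 1, and in ODD that of Col26a1 at 0.71 (SE 0.35), with 2.01 FPKM in ODD replicate 1 against 1.26 in ODD replicate 2. For Col4a1, one of the genes below Input, ODD differed from LacZ by -0.00 (SE 0.28) and EVEN by 0.32 (SE 0.28). For Col18a1 the differences were 0.13 and 0.15 (SE 0.25 for each). Col5a1 gave 0.13 and 0.25 (SE 0.35 for each) and Col22a1 0.14 and 0.09 (SE 0.35 for each). With the block, 1 gene for ODD, Col26a1, had an unadjusted p under 0.05 and none was called.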

How the data were processed

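The authors deposited whole-number read counts by gene and FPKM values with gene lengths; the FPKM values were equal to count over length and column total (largest relative difference 6.66e-14). The submitters' processing notes name cutadapt 3.2, Bowtie2 2.4.2, Picard, HTSeq 0.13.5 and GRCm38. The annotation and strand setting of the counting: not given in the sources used here. Gene symbols, coordinates and exons came from GENCODE release M21 on GRCm38. Deposited lengths matched it for 99.1% of identifiers and 41 of 44 collagen genes.

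Counts were tested on all 8 libraries with edgeR 4.0.16 in R 4.3.3 (quasi-likelihood test, group as the only term, TMM, default filter by group, about 10 counts in a library of median depth, 16524 genes). Replicate 2 against replicate 1 used group and replicate as terms. P-values are two-sided, adjusted by Benjamini-Hochberg over all genes tested, threshold 0.05. A log2 fold change comes from this fit, and an SE is its size over the square root of F. Levels in the text are the deposited FPKM, which are not TMM-scaled; TMM factors were 0.965 to 1.03. Replicates were not duplicates (chi-square per degree of freedom 31.5 to 61.5).

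The labels call the replicate a batch, and the design text speaks of independent experiments, so the numbers pair libraries. Over the 6 pairs of groups, deviations of same-numbered libraries had r of 0.533 to 0.766. Alternatives were the replicate as a block, DESeq2 1.42.0, RLE factors, total library size, other filters, limma 3.58.1 on log2 of the deposited FPKM plus 1 or 0.1, and leaving out each library.

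The gene classes, pathway lists and marker lists, and the collagen genes themselves, were chosen with earlier results of these data known. Named were the 10 genes of highest mean FPKM, each class's highest, every called gene, 8 reference genes and, per list, up to 4 genes by level or called. Col9a2, Col7a1, Col20a1 and the low genes were added after their values were seen, as were listed markers beyond 4. One listed marker and the sums that need it are not reported here.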

Additional observations from a re-analysis of the deposited data

Results flagged for a closer look

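For 5 collagen genes the change from Input to pull-down differed between the experiments in the interaction test of edgeR (quasi-likelihood, Benjamini-Hochberg over 16524 genes). The values are the log2 change of replicate 2 minus that of replicate 1, so a positive value means that pull-down over Input was higher in replicate 2. For Col11a1 the difference was 0.96 (SE 0.14, adjusted p = 0.00702), with all 3 pull-downs below Input in replicate 1 and all 3 above it in replicate 2. For Col4a5 it was 1.08 (SE 0.18, adjusted p = 0.013). For Col5a1 it was 0.95 (SE 0.18, adjusted p = 0.0199). For Col12a1 it was 1.04 (SE 0.21, adjusted p = 0.0263), again with pull-downs below Input in replicate 1 and above it in replicate 2. For Col1a1 it was 0.94 (SE 0.20, adjusted p = 0.031). Of the 38 genes, 30 had a difference above 0, with a median of 0.69 against -0.05 for all genes. Each experiment has 1 Input library, and the share of collagen counts was 0.121% in Input replicate 1 and 0.0745% in Input replicate 2, with 0.0623% to 0.0775% in the pull-downs. The spread in this test comes from the 3 pull-downs of each experiment alone. Without ODD replicate 2 the call was lost for Col1a1, Col5a1 and Col12a1, leaving 2 genes, without ODD replicate 1 it was lost for Col1a1 and Col12a1, leaving 3, and without LacZ replicate 2 or EVEN replicate 2 there were 10 and 13. A difference of the experiments and a peculiarity of 1 Input library cannot be told apart.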

How the results depend on the processing

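With the replicate block, the number of collagen genes called against Input went from 0 to 8 for ODD, 7 for EVEN and 9 for LacZ. Each of these blocked counts includes Col7a1, which passed the filter only through the pull-downs. No comparison with LacZ gained a call. DESeq2 called 1 for ODD and 3 for LacZ. Without a filter beyond 1 count, 6, 2 and 6 were called for ODD, EVEN and LacZ. Leaving out a library gave 0 to 5 for ODD, 0 to 1 for EVEN and 0 to 5 for LacZ, the upper value each time without Input replicate 2. For replicate 2 against replicate 1, the count of 14 became 7 to 18 on leaving out a library, 19 without a filter beyond 1 count, and 10 with the filter of 50 counts or with limma at either pseudocount. A fit of this comparison without a replicate term cannot be made. Of the 14, the genes missed under some alternatives were Col4a4, Col6a2, Col24a1, Col8a1, Col13a1, Col22a1 and Col19a1. For the interaction of capture with replicate, the count of 5 became 12 with DESeq2, 10 with RLE factors, 9 with total library size and 12 without a filter beyond 1 count, and stayed at 5 with limma at a pseudocount of 1. Limma at 0.1 and the filter of 50 counts were not run for it. Leaving out a pull-down library, an alternative chosen after seeing the data, gave 2 to 13. The lowest value came without ODD replicate 2 and the highest without EVEN replicate 2. No called value changed sign, but uncalled ones did: without Input replicate 1 the median of the collagen genes went from -0.32 to 0.08 for EVEN against Input, and from -0.12 to 0.08 for replicate 2 against replicate 1. The cause of these changes was not tested. With 2 libraries per group and 7632775 counts in the shallowest library, genes of a few counts are measured poorly.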
